A study of Mus musculus with 3 samples.

Results

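The NKX2-5 ChIP peaks at 4 highly transcribed housekeeping loci, those of Actb, Actg1, Gapdh and Malat1, were described here. A peak belonged to the set when its midpoint lay within 20 kb of the annotated body of 1 of these genes, and this rule found 28 of the 9859 peaks, 13 of 4418 in the library labelled S1 and 15 of 5441 in the library labelled S4. The genes were chosen by the measured peaks themselves, with the wide peaks at these loci already known. Peak position, width, score and gene cover are therefore given as a description, with no test. The study mapped NKX2-5 in hearts of wild-type mouse embryos of the Parkes strain at E11.5 (embryonic day) by chromatin immunoprecipitation with the NKX-2.5 (N-19) antibody and sequencing. It had 1 condition, with 2 ChIP libraries (S1 and S4) and 1 Input library, which was not analysed here. The series describes the ChIP as done in duplicate, but no source used here says whether S1 and S4 came from separate pools of hearts, so their spread may be technical. The peak lists carry no read counts, so the depth behind each peak is unknown.

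NKX2-5, a homeodomain protein needed for heart development, recognises sites with an AAGTG core, and the homeodomain factor MEIS1 recognises TGACA. Actb and Actg1 encode the cytoplasmic beta- and gamma-actins, which form the cytoskeleton of nearly all cells, and Gapdh encodes a glycolytic enzyme. Malat1 is a nuclear long non-coding RNA that is abundant in most tissues. All are transcribed strongly in many cell types, and the protein-coding members among them are common reference genes.

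The members shared 1 feature of position. Each gene carried a wide peak directly after its annotated 3' end in both libraries, so the sequence of these stretches is shown first. The following lines give bases in mm9 on the gene's own strand, the minus strand for all 4 genes, written 5' to 3', with AAGTG and TGACA in capitals on whichever strand they matched. For Actb (chr5:143663790-143663909), Actg1 (chr11:120205439-120205558) and Malat1 (chr19:5794686-5794805) they are the 120 bases at the centre of the stretch that both libraries covered. All 3 lay outside annotated exons. The Gapdh stretch overlapped an exon of the convergent gene Iffo1, so only 30 bases around an AAGTG are shown (chr6:125110906-125110935).
Actb after the end: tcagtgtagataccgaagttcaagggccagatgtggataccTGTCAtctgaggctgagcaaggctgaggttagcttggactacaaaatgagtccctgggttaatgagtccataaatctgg
Actg1 after the end: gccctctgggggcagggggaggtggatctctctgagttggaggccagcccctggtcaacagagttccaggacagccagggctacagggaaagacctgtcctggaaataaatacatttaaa
Gapdh after the end: cacattccttacaAAGTGgaaaagggaggc
Malat1 after the end: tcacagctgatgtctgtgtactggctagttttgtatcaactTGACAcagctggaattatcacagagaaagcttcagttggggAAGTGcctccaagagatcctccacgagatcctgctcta

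Longer forms of the NKX2-5 and MEIS1 sites were searched as TNAAGTG, which contains AAGTG, and as GTGNTGACA, which contains TGACA. The windows below, 41 bases each, are shown because they hold such a match under peaks of both libraries after an actin gene or beside Malat1, and only that match is in capitals. Where a form had several such matches after a gene, that nearest to the gene end is shown, and Actg1 held 3 further TNAAGTG matches 908, 1926 and 2263 bp after its end. They are written on the strand of the match, which was minus for the TNAAGTG matches at Actb (chr5:143664002-143664042) and Actg1 (chr11:120206381-120206421). It was plus for the GTGNTGACA matches at Actg1 (chr11:120206554-120206594) and Malat1 (chr19:5803147-5803187). The first 3 lay 772, 603 and 430 bp after the gene end, and the Malat1 match lay 496 bp before the annotated start.
Actb, 772 bp after the end: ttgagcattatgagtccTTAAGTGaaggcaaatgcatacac
Actg1, 603 bp after the end: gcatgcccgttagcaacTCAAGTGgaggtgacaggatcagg
Actg1, 430 bp after the end: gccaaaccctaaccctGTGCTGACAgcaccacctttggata
Malat1, 496 bp before the start: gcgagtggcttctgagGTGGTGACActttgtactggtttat

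The 120 bases before the annotated start are shown for 3 genes because peaks also lay over the starts, again on the gene's strand in mm9. They are chr11:120209857-120209976 for Actg1, chr6:125116486-125116605 for Gapdh and chr19:5802672-5802791 for Malat1. Peaks of both libraries covered the Gapdh and Malat1 stretches in full, while the Actg1 stretch lay under a peak of S4 only. Capitals mark the CArG box, the binding site of serum response factor, which is known to activate actin genes. It was looked for after these sequences had been seen.
Actg1 before the start: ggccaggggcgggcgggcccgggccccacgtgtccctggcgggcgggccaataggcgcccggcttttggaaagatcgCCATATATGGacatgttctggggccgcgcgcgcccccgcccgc
Gapdh before the start: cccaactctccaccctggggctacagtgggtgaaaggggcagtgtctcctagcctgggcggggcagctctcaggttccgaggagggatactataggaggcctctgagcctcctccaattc
Malat1 before the start: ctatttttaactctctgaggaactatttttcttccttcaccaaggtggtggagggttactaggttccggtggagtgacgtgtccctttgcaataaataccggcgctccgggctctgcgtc
Actg1 held 1 CArG box, and Gapdh and Malat1 held 0. Among 22350 protein-coding genes, 0.734% held a CArG box in the same 120 bases. None of the 3 stretches held AAGTG or TGACA on either strand, and 36% of those 22350 genes held at least 1 of the motifs there.

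All 4 genes had at least 1 peak midpoint within 20 kb in each library, which the rule itself fixed. Of 37252 annotated genes, 13.8% had such a peak in S1 and 16.9% in S4. Actb had 5 peaks in S1 and 3 in S4, Actg1 had 2 and 3, Gapdh had 2 and 5, and Malat1 had 4 in each. The members made up 0.294% of the peaks and 0.639% of the peak bases in S1, and 0.276% and 0.690% in S4.

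**Figure D1:**
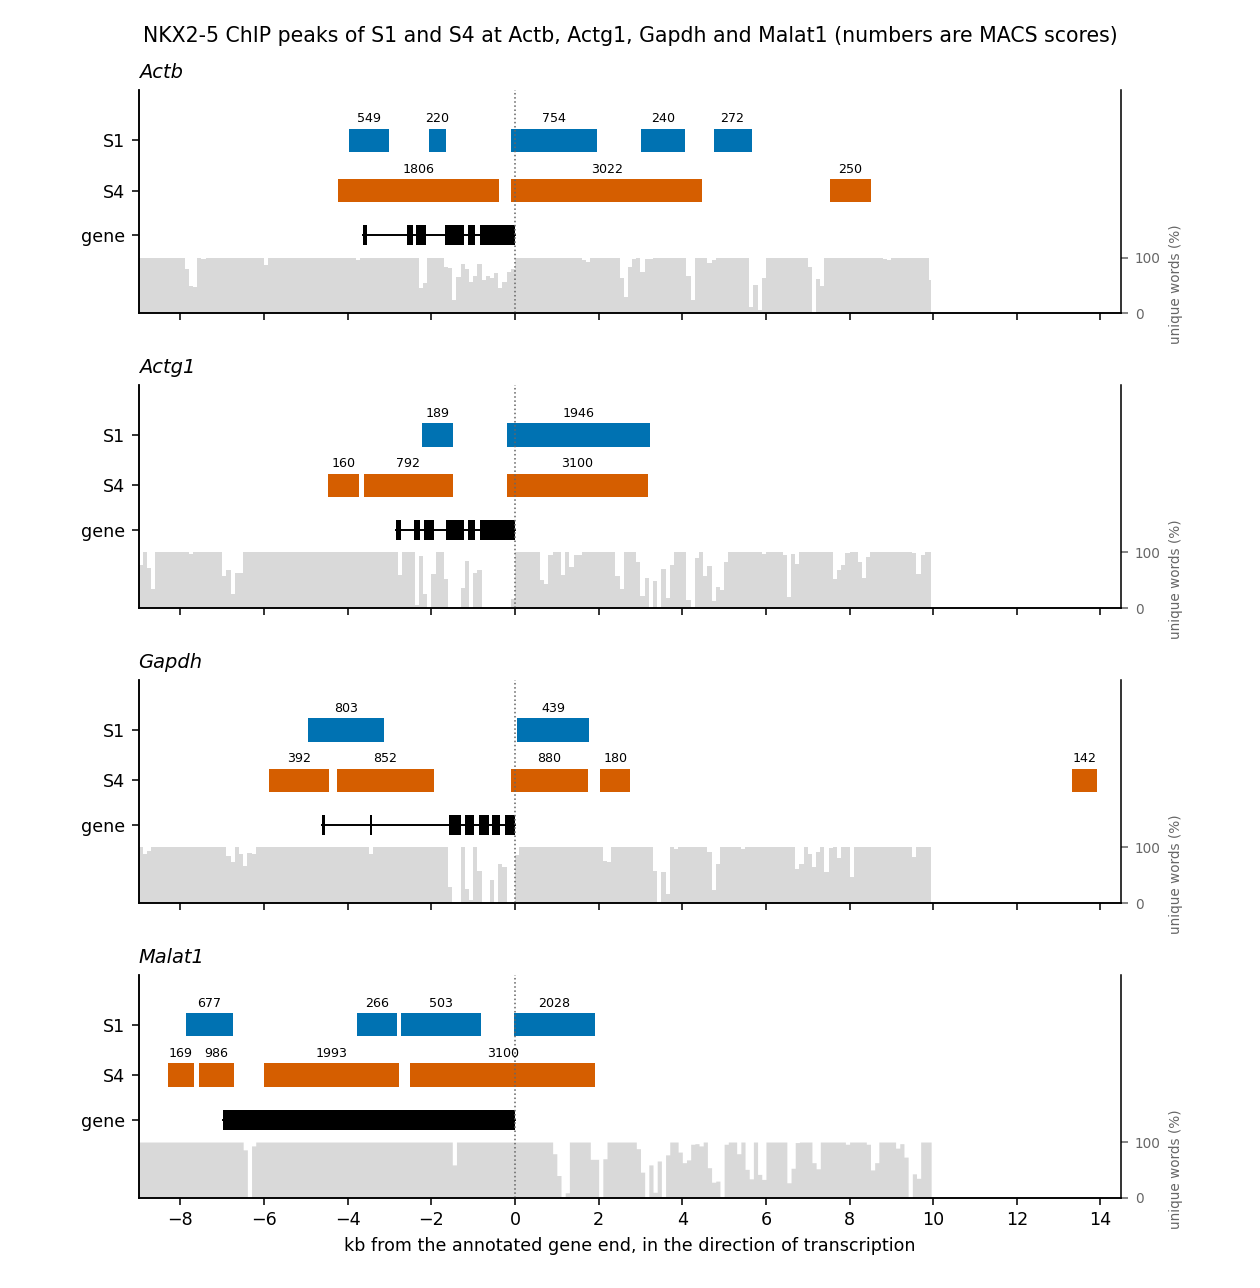
Peaks of S1 (blue) and S4 (orange) at the 4 genes against distance in kb from the annotated gene end, in the direction of transcription, with each peak's MACS score above it. Black bars are exons of the longest transcript, and the grey track (right axis, drawn to 10 kb after the end) gives the percentage of 32-base words found at a single place in the assembly. In every panel a peak of each library begins within 0.2 kb of the gene end or covers it, and extends 1751 bp or more beyond it.

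The Actb gene (chr5:143664794-143668433, 3640 bp, 6 exons) had the peak with the highest score at its 3' end in both libraries. In S1 this peak was 2057 bp wide with a score of 754, the 16th widest of its list, and ran from 84 bp before the gene end to 1972 bp after it. In S4 it was 4565 bp wide with a score of 3022, the 8th widest, and ran from the same 84 bp before the end to 4480 bp after it. The upstream edges of the peaks in S1 and S4 fell on the same base. Around the start of Actb, S1 had a peak of 958 bp (score 549) and S4 a peak of 3847 bp (score 1806), which also covered most of the gene. S1 had a further peak of 410 bp inside the gene (score 220) and a pair of 1069 and 909 bp downstream (scores 240 and 272). The S4 peak after the end covered the first of that pair but not the other. The remaining S4 peak, of 978 bp with a score of 250, lay over the start of Fbxl18, 1 of the neighbouring genes, and had no counterpart in S1.

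At Actg1 (chr11:120207004-120209856, 2853 bp, 6 exons) the peaks of S1 and S4 at the gene end had nearly the same outline. The S1 peak was 3399 bp wide with a score of 1946, and the S4 peak was 3392 bp wide with a score of 3100, the highest value in the lists, which 13 peaks of S4 shared. They began 181 and 200 bp before the end and stopped 3217 and 3191 bp after it. In S1 the Actg1 peak was the 5th widest of all 4418. The gene's other S1 peak, 738 bp wide with a score of 189, covered exon 3. In S4 a peak of 2139 bp (score 792) lay over the first exons and the start, followed by a peak of 735 bp (score 160) upstream. The start of 0610009L18Rik, a divergent gene that begins 136 bp from Actg1, lay under the former in S4 and under no peak in S1.

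Gapdh (chr6:125111871-125116485, 4615 bp, 7 exons) had 1 peak at each end in S1. The peak over the start was 1802 bp wide with a score of 803, and the peak after the end was 1737 bp wide with a score of 439. In S4 the stretch around the start carried a peak of 2323 bp (score 852) and a peak of 1431 bp (score 392), and the peak at the end was 1851 bp wide with a score of 880. At the end the S1 peak began 40 bp after the last annotated base and the S4 peak 99 bp before it, and they stopped 1776 and 1751 bp after it. Gapdh was thus the only member whose last base was not under a peak in S1. S4 alone had peaks further on, of 734 bp (score 180) and 601 bp (score 142), both within Iffo1. The annotated end of Iffo1 lies 71 bp from that of Gapdh. The peaks at the Gapdh end thus also lay mostly within Iffo1, and these lists cannot tell the genes apart there.

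Malat1 (chr19:5795690-5802671, 6982 bp, annotated with 1 exon) had the highest-scoring member peak of S1. This peak at the gene end was 1951 bp wide with a score of 2028 and ran from 29 bp before the end to 1921 bp after it. In S4 the corresponding peak was 4425 bp wide with a score of 3100, began 2507 bp before the end and stopped 1917 bp after it. The downstream edges thus differed by 4 bp and the upstream edges by 2478 bp. Within the gene, S1 had peaks of 1921 bp (score 503) and 957 bp (score 266), and S4 had a peak of 3220 bp (score 1993). The start was covered in each library, by a peak of 1115 bp (score 677) in S1 and of 829 bp (score 986) in S4, which had a further peak of 633 bp (score 169) upstream. Gm20417, annotated on the opposite strand inside Malat1, cannot be told apart from it in these lists.

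The 2 kb after the gene end were covered almost completely. At Actg1 100% of these bases lay under peaks in both libraries. At Actb the share was 98.6% in S1 and 100% in S4, at Malat1 96.0% and 95.8%, and at Gapdh 86.8% and 87.6%. The libraries differed by at most 1.4 percentage points in this zone. At Gapdh it lay mostly within Iffo1, so its cover cannot be assigned to Gapdh alone. At least 50% of the 2 kb was covered for 4 of 4 genes in S1, in S4 and in both. Among all 37252 genes the same was found for 0.156% in S1, 0.384% in S4 and 0.113% (42 genes) in both. Ranked by the smaller of the 2 libraries' values, Actg1 had no gene above it, Actb had 3, Malat1 had 4 and Gapdh had 6. The genes other than members above Gapdh were AY036118, a pseudogene, Mest, an imprinted gene, and Actc1, the cardiac alpha-actin. These were named after their values had been seen, as was the choice of the 2 kb zone. The annotated last base lay under a peak in both libraries for 3 of 4 members and for 0.22% of all genes.

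The bodies of the genes were covered less, and less alike in S1 and S4. Actb had 31% of its body under peaks in S1 and 92% in S4, a mean of 61.5% ± 43.1 (SD, n = 2). Malat1 had 45.0% and 85.6% (65.3% ± 28.8, SD, n = 2). Gapdh had 32% and 56.1% (44.1% ± 17.1, SD, n = 2), and Actg1 had 32.2% and 55.2% (43.7% ± 16.2, SD, n = 2). S4 had the larger cover at each gene. At least 50% of the body was covered for 0 of 4 members in S1, 4 of 4 in S4 and 0 of 4 in both, beside 0.185%, 0.357% and 0.15% of all genes. Genes were again ranked by the smaller of the 2 libraries' values, so a gene ranked above a member need not exceed it in each library. Between 60 (Malat1) and 77 (Actb) of the 37252 genes had a larger body cover by this measure. For the 2 kb after the end at most 6 genes ranked above a member. Many genes with a high body cover were short, and 45 of the 56 genes with 50% of the body covered in both libraries were under 1 kb. The 7793 genes of 2 to 10 kb, the range that holds all members, were ranked by the same measure. Of these, 4 (Malat1) to 14 (Actb) had a larger body cover and 0 (Actg1) to 4 (Gapdh) a larger cover after the end. In that range 0.0385% of genes had 50% of the body and 0.244% had 50% of the 2 kb after the end covered in both libraries, so the order of those shares was the opposite of that over all genes.

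**Figure D2:**
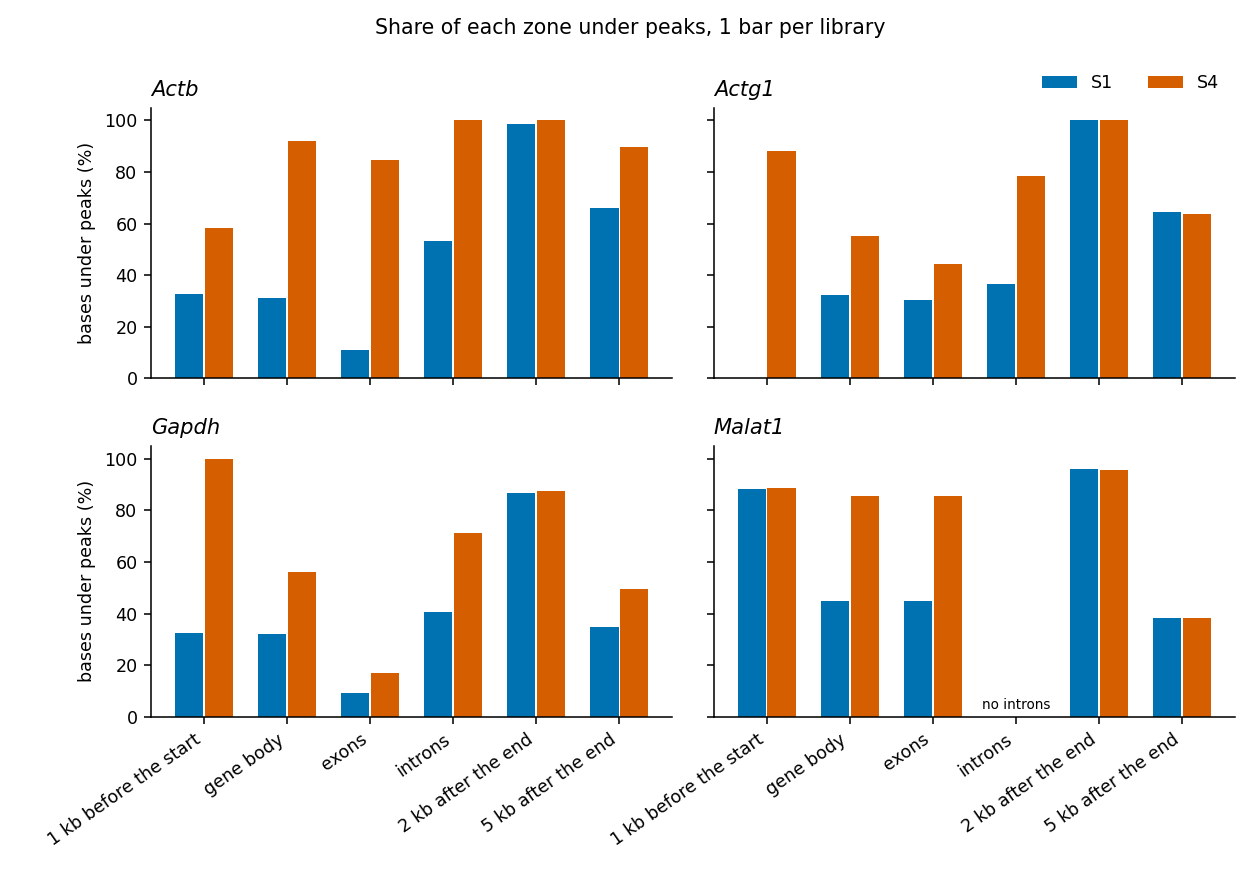
Percentage of bases under peaks (y axis) in 6 zones of each gene (x axis), with 1 bar for S1 (blue) and 1 for S4 (orange). The bars for the 2 kb after the end reach 86.8% or more in both libraries at all 4 genes, while those for the body, exons and introns are shorter in S1 than in S4.

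Cover within the spliced genes was greater over introns than over exons. In Gapdh 9.04% of exon bases lay under peaks in S1 and 16.8% in S4, and 40.8% and 71.1% of intron bases did. In Actb the exons had 10.9% and 84.8% and the introns 53.4% and 100%. In Actg1 the exons had 30.2% and 44.5% and the introns 36.7% and 78.4%. In Gapdh and Actg1 some inner exons were wholly uncovered. Exons 3 to 6 and introns 3 to 6 of Gapdh were at 0% in both libraries, as were exon 5 and introns 4 and 5 of Actg1, whereas exons 1 and 2 of Gapdh were at 100% in both.

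Much of this exon sequence occurs elsewhere in the genome, where actin and Gapdh pseudogenes are known. Of the 32-base words of Gapdh exons, 16.2% occurred at a single place in the assembly, and the median word had 58 copies. For Actg1 exons the share was 11.3% and for Actb exons 66.5%. Intron words occurred at a single place in 100% of cases for Actb and Actg1 and in 98.4% for Gapdh, and 97.7% of Malat1 words did. Body sequence outside peaks was poorer in such words than body sequence under peaks at each gene. For S4 the shares were 50.3% outside and 95.6% under peaks at Gapdh, 19.8% and 55.2% at Actg1, 57.2% and 84.5% at Actb, and 87.9% and 99.3% at Malat1. For S1 they were 64.8% and 99.1% at Gapdh, 38.0% and 42.1% at Actg1, 75.2% and 98.1% at Actb, and 96.9% and 98.7% at Malat1. How reads with several matches were handled is not given in the sources used here, and the part of repeated sequence in the gaps was not tested. The 5 kb after the ends held such words at 94.2% for Actb, 91.0% for Gapdh, 74.0% for Actg1 and 73.9% for Malat1.

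The copies themselves lay under few peaks. Of 132 other places that held at least 100 words of Gapdh exons, 0 lay under a peak in either library, and of 343 places with at least 1 word, 0 did. Actg1 exon words were held by 12 such places and Actb exon words by 7. In each case 1 place lay under a peak in both libraries, and that place was the other actin gene itself. Malat1 words were held by 202 such places, 1 under a peak in S1 and 2 in S4. All peaks together spanned 2977 kb in S1 and 4594 kb in S4, a small part of the assembly. Few places of any kind would lie under them, so these low counts say nothing particular about the copies.

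The start of the gene was the other covered zone. The annotated first base lay under a peak for 3 of 4 members in S1, all but Actg1, and for 4 of 4 in S4. Among all genes the shares were 1.69% and 2.64%. In the 1 kb before the start, Malat1 had 88.4% of bases covered in S1 and 88.7% in S4, Gapdh 32.5% and 100%, Actb 32.5% and 58.4%, and Actg1 0% and 88.2%. Apart from Malat1, this zone was covered more in S4. The order of the genes also differed between S1 and S4, unlike after the end, where Actg1 and Actb led in both.

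**Figure D3:**
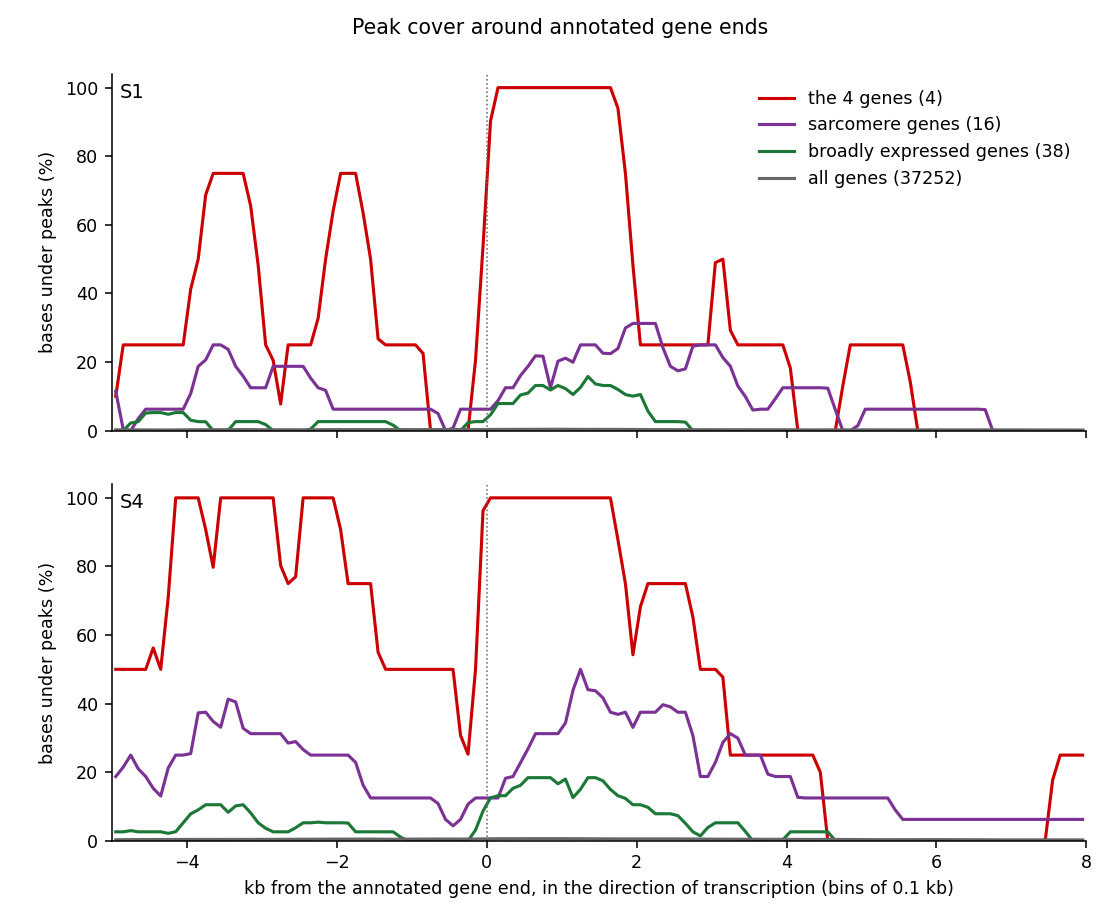
Percentage of bases under peaks (y axis) in bins of 0.1 kb against distance in kb from the annotated gene end (x axis), for S1 (top) and S4 (bottom), averaged over the 4 genes, 16 sarcomere genes, 38 broadly expressed genes and 37252 genes in all. The line of the 4 genes stands at 100% from 0.1 to 1.7 kb after the end in both panels and falls to a lower value just before the end.

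From 0.1 to 1.7 kb after the end, every base was under a peak in both libraries at all 4 genes. The same position was compared with a point before the end. In the bin centred 1.05 kb after the end, cover was 100% in S1 and S4, and in the bin centred 0.75 kb before the end it was 0% and 50%. A list of 38 other broadly expressed genes (such as Eef1a1, Ppia and Ywhaz) had 12.3% and 18.0% at the former point and 0% and 0% at the latter. A list of 16 sarcomere genes had 21.1% and 34.4% after the end and 6.25% and 12.5% before it. Over all genes the values were 0.384% and 0.631% after the end and 0.300% and 0.513% before it. For the 4 genes the point 0.75 kb before the end lay in exon sequence. Words found at a single place in the assembly made up 60% there at Actb, 0% at Actg1 and Gapdh, and 100% at Malat1. At 1.05 kb after the end their share was 100% at Actb, Actg1 and Gapdh and 40% at Malat1. Cover of the 4 genes 1.85 kb before the end was 75% in S1 and S4. The part of repeated sequence in these differences was not tested.

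Among the 38 broadly expressed genes, 5 had at least 50% of the 2 kb after the end covered in S1, 5 in S4 and 3 in both, beside 0.156%, 0.384% and 0.113% of all genes. The 3 were Eef1a1, a translation elongation factor (56% in S1 and 75.8% in S4), Hnrnpa2b1, an RNA-binding protein (50.9% and 83.5%), and Hsp90ab1, a chaperone (50.6% and 55.4%). None of the 38 reached 50% of the body in S1 or S4, and the median gene of that list had 0% in the body and after the end. The 4 members had medians of 97.3% and 97.9% after the end. Most genes of the list thus lacked the cover seen at the members.

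Other actins and long non-coding RNAs were compared with the members of their kind. Of 4 further actin genes only Actc1 reached 50% in these zones, with 73.5% of the body and 97.3% of the 2 kb after the end under peaks in S1 and 97.4% and 91.0% in S4. Of 7 long non-coding RNAs besides Malat1, none reached 50% of the body. Gas5 (77.7% in S1 and 82.3% in S4) and H19 (68.0% and 76.2%) reached it in the 2 kb after the end. The Neat1 gene, a neighbour of Malat1 that also makes a nuclear RNA, carried the nearest peaks outside the 20 kb limit, at 25 kb, with scores of 410 and 429. Farthest inside the limit was the S4 peak in Iffo1, 13.6 kb from Gapdh.

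Sarcomere genes, which build the contractile unit of heart muscle, also lay under wide peaks. Of 16 sarcomere genes, 1 in S1 (Myl2, a ventricular myosin light chain) and 4 in S4 (Myl2, Myh6, Myh7 and Myl7) had at least 50% of the body covered. After the end, 2 of 16 did in S1 and 4 of 16 in S4, with Tnni1 at 67.2% and 68.0% and Myl7 at 79.8% and 100%. Over all genes the shares were 0.185% in S1 and 0.357% in S4 for the body, and 0.156% and 0.384% after the end. All 14 cardiomyocyte markers had a peak within 20 kb in both libraries. None of 7 globin genes, the markers of red blood cells, had a peak within 20 kb in either library. Of all genes only 13.8% had such a peak in S1 and 16.9% in S4, so the absence at 7 genes says little about globins. Peak cover is not a level of expression, and no transcript level of these hearts was analysed, so the part of transcription in the cover was not tested.

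**Figure D4:**
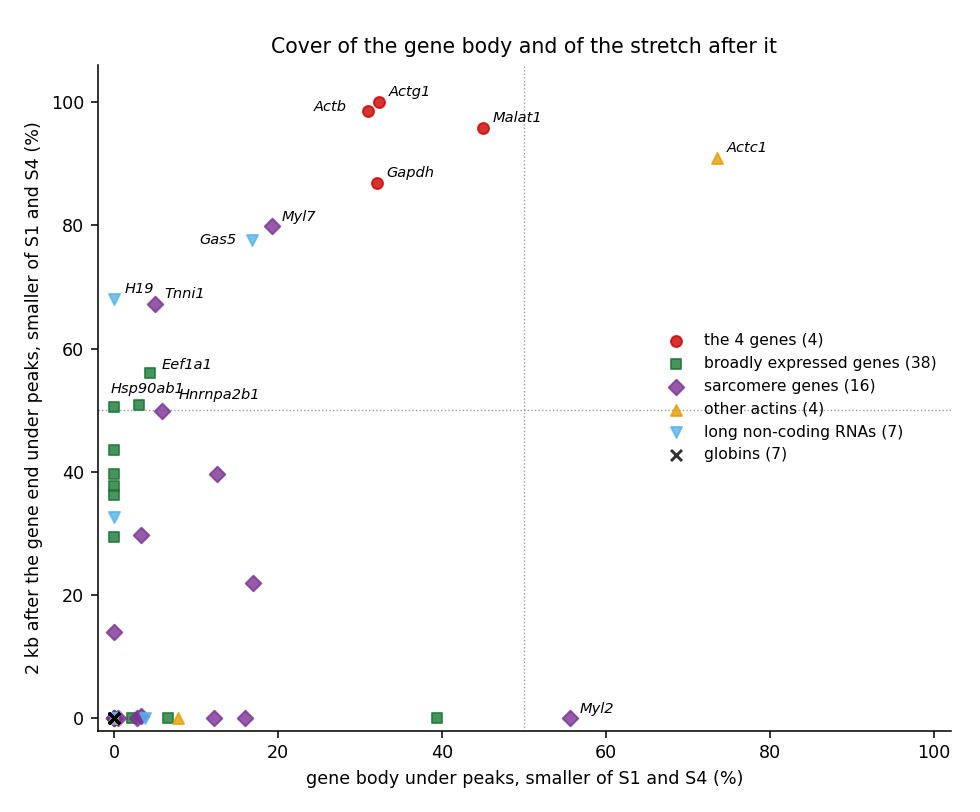
Cover of the gene body (x axis, %) and of the 2 kb after the gene end (y axis, %), each as the smaller value of S1 and S4, for the 4 genes and for the genes of 5 comparison lists, with dotted lines at 50%. The 4 genes lie between 31% and 45% on the x axis and above 86% on the y axis. Actc1 is above both lines, Myl2 has body cover alone, and the 7 globin genes lie at 0%.

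The wide peaks placed members near the top of each list by width. Median width was 1115 bp in S1 and 1851 bp in S4, beside 625 and 783 bp over all peaks. Median score was 503 and 852, beside 212 and 223. In each library 6 member peaks were among the 50 widest and 3 among the 20 widest. By score, S1 had 2 members among the 50 highest and 0 among the 20 highest, and S4 had 4 and 3. Peaks of at least 2 kb were rare, 18 in S1 and 63 in S4, and members were 2 and 7 of these. The scores of MACS are 10 times the negative log10 of a p-value within 1 library and were not scaled between libraries.

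The other peaks among the 10 widest fell into few kinds of locus. In S4 they covered sarcomere genes (Myh6, Myh7, Tpm1, Myl2, Myl4 and Actc1), AY036118 and an intergenic stretch of chromosome 2, with Actb and Malat1 as 8th and 10th. In S1, Actg1 was joined by Myl2, Actc1, AY036118, Sfi1 and Gm16869, by the same stretch of chromosome 2 and by an intergenic stretch of chromosome 11. The widest S1 peaks, of 9946 and 8421 bp at Sfi1, had scores of only 149 and 231. The Actg1 peak of S1 was narrower than those and scored 1946. Genes of at least 1 kb were also ranked by the smaller of the libraries' body covers. The leading genes were others, with Gm10715, Hist1h1c, Actc1, Cmtm5 and Gm13593 first, followed by Gm11373, 4930442H23Rik, Nppb, Ctgf and Myl2.

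**Figure D5:**
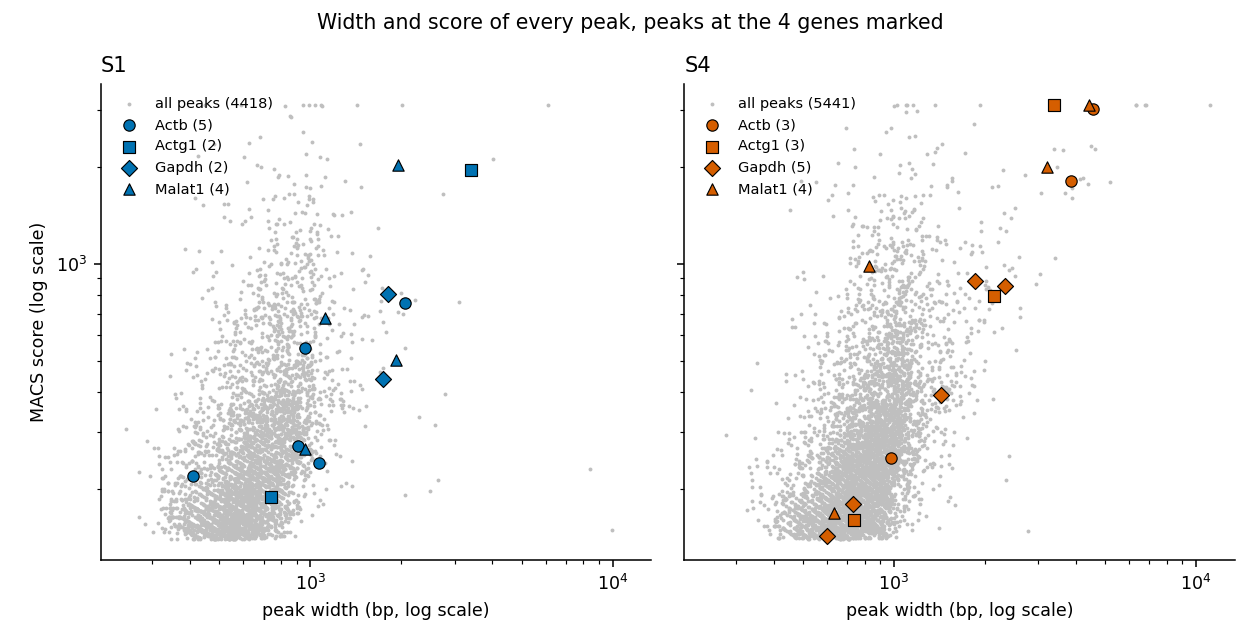
MACS score against peak width in bp, both on log axes, for all peaks of S1 (left, 4418) and S4 (right, 5441) in grey and for peaks at the 4 genes as coloured symbols, 1 shape per gene. The peaks at the gene ends lie at the right edge of the grey cloud, and the member peaks with scores under 300 lie inside it.

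Most member peaks touched a peak of the other library. Of the 13 member peaks of S1, 12 (92.3%, exact binomial 95% interval 64.0 to 99.8%) shared 1 base or more with a peak of S4, beside 58.9% of all S1 peaks. In the other direction 11 of 15 did (73.3%, 44.9 to 92.2%), beside 47.0% of all S4 peaks. When 50% of both peaks had to overlap, the member shares fell to 23.1% in S1 and 20% in S4. These intervals cover counting error only, and peaks of 1 locus are not independent. Member peaks were also wider and scored higher than the lists, and no comparison at like width or score was made. Over all peaks with a partner, the median width was 686 bp in S1 and 858 bp in S4, beside 625 and 783 bp over all peaks. The unmatched peaks were 909 bp wide with a score of 272 in S1, and 601 to 978 bp wide with scores of 142 to 250 in S4. The shares were also taken over bases. Of the bases covered in S1, 99.4% at Actg1, 94.3% at Malat1, 94.0% at Gapdh and 83.2% at Actb were covered in S4. Of those covered in S4, 65.6%, 61.5%, 47.9% and 47.9% were covered in S1. The S1 pattern thus lay mostly within that of S4, which was broader at all 4 genes. The whole S4 list was also broader, with 4594 kb under peaks beside 2977 kb in S1.

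Peak edges were close together at the gene ends. The nearer pair of edges differed by 0 bp at Actb, 19 bp at Actg1, 25 bp at Gapdh and 4 bp at Malat1. Over the 2610 pairs of overlapping peaks in the lists, the median of the nearer edge difference was 62 bp and 35.2% were within 40 bp. The far edges ranged more widely, from 26 bp at Actg1 to 2508 bp at Actb.

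Sites of the NKX2-5 and MEIS1 type were not denser in the member peaks than in the lists. AAGTG occurred at 2.89 matches per kb in the members of S1 and 2.40 in those of S4, beside 3.54 and 3.25 over all peaks 2.52 and 2.54 in sequence 2 kb to either side of them, and 2.39 and 2.65 in sequence 2 kb to either side of the members. AAGTG was held by 84.6% and 86.7% of member peaks, and by 88.7% and 91.9% of all peaks. TGACA occurred at 2.0 and 1.99 per kb, beside 3.57 and 3.28 over all peaks 2.51 and 2.47 in sequence beside them and 2.21 and 2.27 in sequence beside the members. It was held by 92.3% and 86.7% of member peaks and by 84.7% and 88.5% of all peaks. Both densities of the members were thus below those of all peaks. TGACA was also below both kinds of adjoining sequence in S1 and S4, and AAGTG was below both in S4 and above both in S1. Among all peaks of at least 1.5 kb, the densities were 3.05 and 2.60 per kb for AAGTG and 2.40 and 2.49 for TGACA. Of those peaks, 97.5% and 99.4% held AAGTG, and 100% and 97.6% held TGACA. The share of peaks with a match depends on width, and some member peaks were narrower than 1.5 kb. The G and C content was 49.6% and 51.5% in members, 49.3% and 49.0% in all peaks, 45.0% and 45.0% in sequence beside all peaks, and 49.8% and 50.6% in sequence beside the members.

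Near the peak midpoints the member densities were again below those of all peaks. Within 100 bp of the midpoint, the members had 9 AAGTG matches in S1 (3.46 per kb) and 3 in S4 (1.0 per kb), beside 4.69 and 4.47 per kb over all peaks. For TGACA the members had 6 and 3 matches (2.31 and 1.0 per kb), beside 4.73 and 4.53. Counts this small fix a density only loosely. Member peaks were also wider than the lists, and no comparison at like width was made around the midpoints. The composite AAGTGACA, which contains both cores, was absent from the members of S1 and occurred 1 time in those of S4, and it was held by 5.07% and 5.95% of all peaks.

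The stretches after the gene ends that both libraries covered were examined in the same way. They spanned 9.089 kb and held 25 AAGTG and 24 TGACA matches, or 2.75 and 2.64 per kb. At Actb, Actg1 and Malat1 these stretches began inside the gene. Among the matches, AAGTG 24 bp before the end of Actb and 15 bp before that of Actg1 thus lay within the genes. So did TGACA 88 bp before the end of Actg1. Gapdh was highest, with 7 and 6 matches in 1712 bp, and Actb held 4 and 6 in 2057 bp. Actg1 held 8 of each in 3373 bp, and Malat1 held 6 and 4 in 1947 bp. TNAAGTG occurred 5 times, 4 of them at Actg1 and 1 at Actb, a density of 0.550 per kb beside 1.12 and 0.981 over all peaks. It had 0.935 and 0.636 in peaks of at least 1.5 kb, 0.620 and 0.599 beside all peaks, and 0.473 and 0.489 beside the members. GTGNTGACA occurred 1 time, in the Actg1 window shown above, a density of 0.110 per kb beside 0.205 and 0.157. Its density was lower in peaks of at least 1.5 kb (0.0398 and 0.0855), beside all peaks (0.0447 and 0.0407) and beside the members (0.0789 in each library). A single match fixes a density only loosely. A match of these letters is a description and not evidence of binding.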

How the data were processed

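NKX2-5 ChIP peaks of E11.5 mouse heart were taken from 2 lists, 1 for each library (S1 and S4). Per the submitters' notes and the study's methods, the authors aligned reads to mm9 with Bowtie (CASAVA 1.4 also named) and called peaks with MACS 1.4. Each deposited row gives start and end positions and a score, which MACS sets to 10 times the negative log10 of a p-value, with a lowest value of 140.01 in S1 and 140.02 in S4. Caller settings, read length and use of the Input as control are not given in the sources used here.

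Genes were those of GENCODE M1, whose assembly (NCBIM37) is that of mm9; all peaks fell within its chromosomes. A gene body ran between the outermost transcript ends, and exons came from the longest transcript. Cover, overlap, 32-base words and motifs on both strands were computed with Python 3.11.15, numpy 2.4.6, pandas 2.3.3, scipy 1.17.1 and numba 0.67.0, and tested on simulated data of 200 genes. No statistical test was made. Members and comparison lists were chosen with earlier results of these data known. Named were the members, genes under or beside their peaks, and listed genes with at least 50% body cover in either library. Genes under the 10 widest peaks of each list were also named. So were the 10 genes of at least 1 kb that ranked highest by the smaller of the libraries' body covers. Eef1a1, Hnrnpa2b1, Hsp90ab1, Gas5, H19, Tnni1, Mest and AY036118 were named for their cover after the end, after their values had been seen; Neat1 as nearest outside the distance limit; Ppia and Ywhaz as examples of a list. Other limits, merged peaks, a higher score minimum and each library alone were tried. The sequence before 1 gene start is not reported here.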

Additional observations from a re-analysis of the deposited data

How the results depend on the processing

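Of 73 alternative values, 52 kept to within 1.5 times a count, 1 SD between the libraries or the exact interval of a share. For a mean over the 2 libraries, either library alone always lies within 1 SD of it. Those alternatives could not count as moved, so they give no measure of stability. With peaks within 1 kb merged, the members numbered 17 instead of 28, 2 instead of 0 genes had 50% of the body covered in both libraries, the S1 share with a partner was 100%, and the mean median width was 2624.5 bp. Each library alone gave 13 to 15 members and 0 to 4 genes with 50% body cover, and a limit of 25% gave 4 genes. Requiring overlap of 50% of both peaks lowered the shares with a partner to 23.1% in S1 and 20% in S4, and a 5 kb distance limit raised that of S1 to 100%. A 50 kb limit lowered the mean median score from 678 to 408. Over all genes, the body share of 0.15% became 0.0385% for genes of 2 to 10 kb and 0.0626% for protein-coding genes. The share after the end, 0.113%, became 0.244% for genes of 2 to 10 kb, and 0.228% with 1 kb and 0.0295% with 5 kb after the end, alternatives chosen after seeing the data. With 5 kb, 2 instead of 4 members passed. AAGTG density moved from 2.64 to 2.23 per kb within 100 bp of the midpoints, and TGACA density from 1.99 to 1.65 there and to 2.05 in stretches shared by both libraries. The causes were not tested.

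Peak lists without read counts gave no depth, and 2 libraries gave a spread of low precision. No paired analysis was possible because the design has a single ChIP group and no test was made.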
